A study of Mus musculus with 6 samples.

Results

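Conventional dendritic cells (cDC) of the mouse spleen fall into type 1 (cDC1), which are specialised in taking up dead cells and cross-presenting to CD8 T cells, and into type 2 (cDC2), better known for presentation to CD4 T cells. The transcription factors IRF8 and BATF3 are needed for cDC1, and IRF4 and ZEB2 act on the side of cDC2. In flow cytometry CD24, a small glycosylated surface protein, marks splenic cDC1, and CD172a (SIRP alpha, a receptor for CD47 encoded by Sirpa) marks cDC2.

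The comparison described here is between the populations that are opposite for both sort markers. These are CD24-CD172a+ cDC2, called CD24- cDC2 below, and CD24+ cDC1, sorted from spleens of wild-type (WT) mice with no treatment named in the labels. Its members are 4 of the 6 arrays of the series, 2 per population, chosen by the populations in the sample titles. The other 2 arrays hold CD24+CD172a+ cDC2, which enter the estimate of the spread and are set beside the results at the end. The labels give no age, sex, number of animals or gating beyond these markers. Whether arrays of the same population came from separate mice is also not said, so p-values measure the spread between these arrays, which may be technical.

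Gene expression was measured on Affymetrix arrays, and levels are log2 of the deposited intensities with their SD (n = 2 arrays). A difference is always CD24- cDC2 minus cDC1 on the log2 scale with its standard error, so a positive value is higher in CD24- cDC2. Calls are genes with an adjusted p under 0.05, from limma with Benjamini-Hochberg adjustment across the whole table. The median intensity of the 6 arrays ran from 29.5 to 30.6, and the small number of arrays limits the precision. The replicate arrays correlated across genes at 0.993 in cDC1 and 0.992 in CD24- cDC2, and arrays of different populations at 0.959 to 0.961; genes are not independent replicates. In sorted bulk samples such as these, fewer cells of a type and less RNA per cell cannot be told apart.

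Of 19938 genes tested, 3137 (15.7%) were called, 1361 (6.83%) higher and 1776 (8.91%) lower in CD24- cDC2. These shares over all genes are the ones to set beside the counts of each gene list below. On the higher side 492 genes differed at least 2-fold, 151 at least 4-fold and 20 at least 16-fold. On the lower side the counts were 466, 106 and 17. The median called gene was higher by 0.81 or lower by 0.73, while the median over all genes was 0.0011. Without cDC1 replicate 1 the fit called 1922 genes, 892 higher and 1030 lower. After cyclic loess 1560 genes were higher and 1472 lower, which turns the order of the directions. The plot of all genes by level shows that large differences ran in both directions from dim to bright genes.

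**Figure D1:**
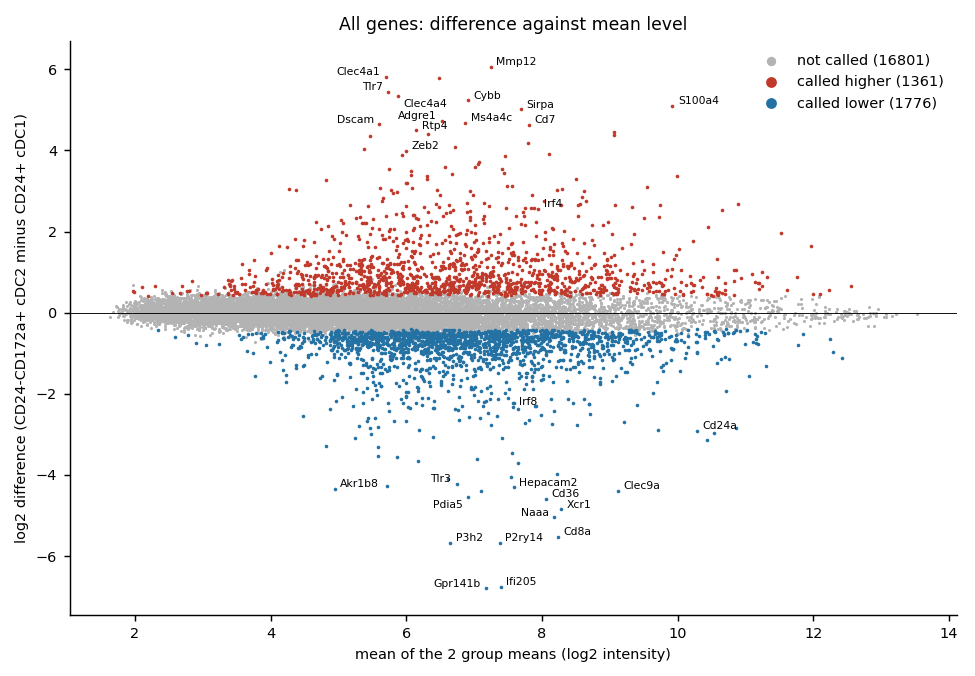
Each point is 1 of 19938 genes, with the mean of both group means (log2 intensity) on the x axis and the log2 difference (CD24-CD172a+ cDC2 minus CD24+ cDC1) on the y axis. Red points are the 1361 genes called higher, blue points the 1776 called lower and grey points those not called; Mmp12 (6.06) and Gpr141b (-6.80) stand at the ends of the named genes.

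The sort markers followed the sort. Cd24a read 11.83 and 11.66 on the cDC1 arrays and 8.68 and 8.97 on the CD24- cDC2 arrays, 7.56-fold lower (difference -2.92 ± 0.15, adjusted p = 3.11e-07). Sirpa read 4.97 and 5.39 in cDC1 and 10.18 and 10.20 in CD24- cDC2, 32.2-fold higher (5.01 ± 0.16, adjusted p = 1.69e-08). The arrays of both genes were far apart between the populations, although Cd24a in CD24- cDC2 stayed above the median gene (5.02).

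The leading genes higher in CD24- cDC2 included genes known from phagocytes. Mmp12, the macrophage elastase, read 3.92 and 4.51 in cDC1 and 10.19 and 10.36 in CD24- cDC2, 66.5-fold higher. Clec4a1, an inhibitory C-type lectin, read 2.71 and 2.87 against 8.68 and 8.51, and its relative Clec4a4, the antigen of the cDC2 antibody 33D1, 3.35 and 3.08 against 8.37 and 8.73. Tlr7, the endosomal receptor for single-stranded RNA, read 3.15 and 2.88 against 8.16 and 8.74. In each of these genes both cDC1 arrays lay under the median gene and both CD24- cDC2 arrays well above it. Cybb, the catalytic subunit of the phagocyte NADPH oxidase, read 4.27 and 4.34 in cDC1 and 9.52 and 9.55 in CD24- cDC2, 37.5-fold higher. S100a4, a calcium-binding protein, read 7.37 and 7.39 against 12.47 and 12.46, and Adgre1, the surface protein F4/80, 4.12 and 4.23 against 8.65 and 9.13. The other leading genes were Ms4a4c, a 4-pass membrane protein (4.68 ± 0.17), Dscam, an adhesion molecule of the immunoglobulin family (4.64 ± 0.13), the surface receptor gene Cd7 (4.63 ± 0.15) and Rtp4, an interferon-stimulated chaperone of membrane receptors (4.49 ± 0.13). With Sirpa these made up the 12 largest differences under the naming rule, and their adjusted p ran from 3.51e-09 for Clec4a1 to 6.07e-08 for Tlr7.

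The leading genes lower in CD24- cDC2 included the defining receptors of cDC1. Gpr141b, an orphan G protein-coupled receptor, read 10.59 and 10.57 in cDC1 and 3.29 and 4.27 in CD24- cDC2, 111-fold lower. Ifi205, of the interferon-inducible p200 family, read 10.77 and 10.79 against 3.83 and 4.18, 109-fold lower. P3h2, a prolyl hydroxylase of collagen, read 9.39 and 9.59 against 3.85 and 3.77. These 3 genes lay far above the median gene on both cDC1 arrays and under it on both CD24- cDC2 arrays. P2ry14, the receptor for UDP-glucose, read 10.22 and 10.21 in cDC1 and 4.26 and 4.82 in CD24- cDC2. Cd8a, the CD8 alpha chain that splenic cDC1 carry, read 10.92 and 11.07 against 5.31 and 5.63, 46.1-fold lower. Xcr1, the receptor for the chemokine XCL1, read 10.71 on both cDC1 arrays and 5.65 and 6.07 on those of CD24- cDC2. In these genes too the populations were separated by many times the spread of the replicate arrays. The remaining ones were Naaa, a lysosomal amidase (-5.05 ± 0.15), the scavenger receptor gene Cd36 (-4.60 ± 0.13), Pdia5, a disulfide isomerase (-4.54 ± 0.15), Clec9a, a receptor for the actin of dead cells (-4.40 ± 0.13), Akr1b8, an aldo-keto reductase (-4.35 ± 0.15), and Hepacam2, an adhesion protein (-4.31 ± 0.15). All 24 leading genes kept their call in each of the 4 fits without a compared array. In 5 of the 12 higher and 3 of the 12 lower leading genes the lower mean lay under the 25th percentile of the arrays (3.93), where background was not examined, so these differences may be understated and have no firm order.

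**Figure D2:**
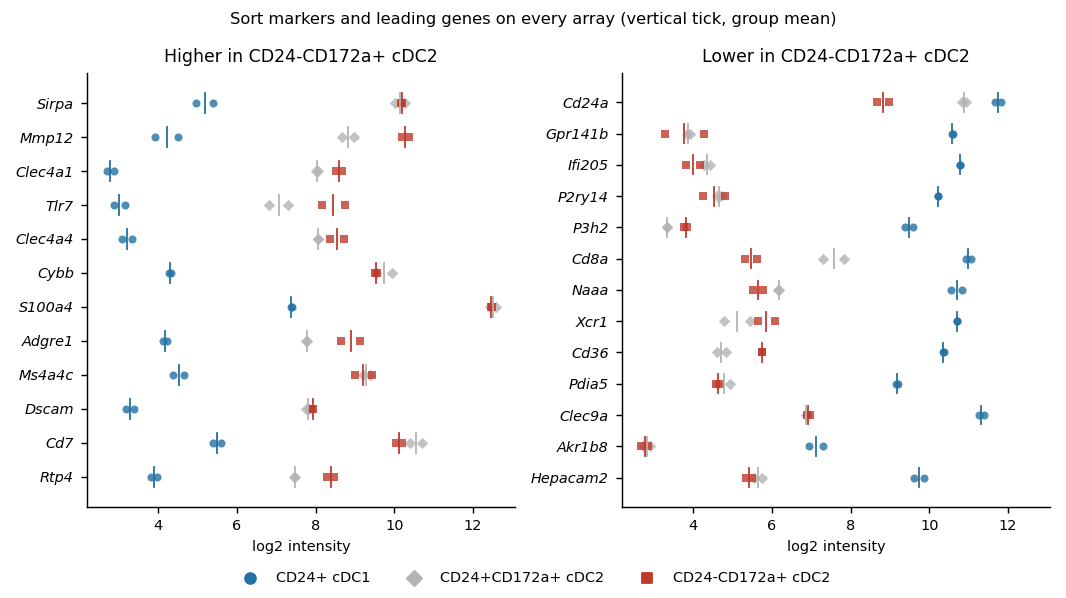
Log2 intensity (x axis) of the sort markers and the 24 leading genes on every array, with 2 points per population and a tick at the mean: blue circles CD24+ cDC1, grey diamonds CD24+CD172a+ cDC2, red squares CD24-CD172a+ cDC2. Blue and red points are apart in every gene, and the grey means lie farthest from the red ones in Cd8a (7.58), Cd24a (10.88), Mmp12 (8.82) and Tlr7 (7.07).

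The promoters of these genes were read for binding motifs of the factors that separate the lineages. PU.1 binds with IRF4 or IRF8 at the ETS-IRF composite core (GGAANNGAA), interferon-activated factors and IRFs bind the interferon response core (GAAANNGAA), and BATF3 with JUN binds the AP-1 site (TGANTCA). Each motif was searched on both strands in RefSeq promoters of build GRCm38.p6, from 250 bases before to 50 after the start, and matches of different motifs may overlap. Of 15614 genes of the fit with a promoter there, 8.83% held the first core, 9.2% the second and 8.08% the third. Among the 1047 genes called higher in CD24- cDC2 with a promoter, 10.2% held the first core and 11.7% the second, and 105 held the AP-1 site. Among the 1447 called lower the shares were 8.02%, 9.19% and, for 98 genes, 6.77%. Of the 120 genes with a promoter that were at least 4-fold higher, 12.5% held the ETS-IRF core, 21.7% the interferon response core and 14.2% the AP-1 site. Of the 85 that were at least 4-fold lower the shares were 7.06%, 15.3% and 11.8%, so the AP-1 site was below its share over all genes among all genes called lower and above it among these. A gene counts as holding a motif when any of its promoters does. A match is a description of letters and shows neither binding nor a cause. Of the 24 leading genes 17 had a promoter there. The ETS-IRF core was found in Clec4a1, Cybb and Cd8a, and the interferon response core in Cybb, Gpr141b, Ifi205 and Clec9a. Cybb, Mmp12 and P2ry14 held the AP-1 site. The 250 bases before the start are shown for the 3 genes with the ETS-IRF core and for Gpr141b and Ifi205, the leading lower genes, with all matches to the 3 motifs in capitals. They are given 5′ to 3′ on the strand of the gene, for Clec4a1 at chr6:122921598-122921847 (plus strand), Cybb at chrX:9469325-9469574 (minus), Cd8a at chr6:71373177-71373426 (plus), Gpr141b at chr13:19732952-19733201 (minus) and Ifi205 at chr1:174031756-174032005 (minus).
Clec4a1: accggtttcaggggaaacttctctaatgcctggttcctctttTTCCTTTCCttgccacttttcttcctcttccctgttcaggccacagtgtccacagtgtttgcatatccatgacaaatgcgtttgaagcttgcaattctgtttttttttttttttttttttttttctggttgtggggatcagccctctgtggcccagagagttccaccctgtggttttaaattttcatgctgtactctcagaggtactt
Cybb: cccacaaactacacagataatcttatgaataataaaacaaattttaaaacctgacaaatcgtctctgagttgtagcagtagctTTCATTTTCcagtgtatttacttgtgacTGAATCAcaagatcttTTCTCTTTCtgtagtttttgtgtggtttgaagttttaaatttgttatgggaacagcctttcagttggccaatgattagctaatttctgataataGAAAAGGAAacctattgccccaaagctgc
Cd8a: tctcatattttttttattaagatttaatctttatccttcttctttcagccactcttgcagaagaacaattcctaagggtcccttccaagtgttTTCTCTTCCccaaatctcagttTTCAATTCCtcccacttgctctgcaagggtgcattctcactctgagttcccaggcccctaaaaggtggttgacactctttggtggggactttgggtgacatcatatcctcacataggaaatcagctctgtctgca
Gpr141b: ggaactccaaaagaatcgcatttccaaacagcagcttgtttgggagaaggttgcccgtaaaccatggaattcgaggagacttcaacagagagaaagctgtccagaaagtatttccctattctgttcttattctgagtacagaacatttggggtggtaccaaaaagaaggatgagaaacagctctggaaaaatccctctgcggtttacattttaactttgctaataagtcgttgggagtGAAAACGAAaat
Ifi205: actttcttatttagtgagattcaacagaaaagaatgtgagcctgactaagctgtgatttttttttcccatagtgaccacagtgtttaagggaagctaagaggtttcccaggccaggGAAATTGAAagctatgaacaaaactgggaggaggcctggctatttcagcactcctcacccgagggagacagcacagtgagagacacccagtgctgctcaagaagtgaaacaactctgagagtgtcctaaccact

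Clec4a1, 56.0-fold higher in CD24- cDC2, and Cd8a, 46.1-fold lower, thus both carry ETS-IRF cores, 1 and 2 of them. Cybb has 3 interferon response cores and an AP-1 site in the stretch shown, and its ETS-IRF core begins 5 bases after the start, outside it. Ifi205 has a second interferon response core that begins 25 bases after the start, also outside the stretch shown.

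The genes that define each lineage separated almost completely. Of 28 measured cDC1 identity genes, 27 (96.4%) were lower in CD24- cDC2 and none was higher by limma, also at an unadjusted p under 0.05, with a median of -3.81. Apart from the leading genes they included Plpp1, a lipid phosphatase (-4.27 ± 0.15), Tlr3, the receptor for double-stranded RNA (-4.23 ± 0.13), Rab7b, a GTPase of late endosomes (-4.05 ± 0.15), and Cadm1, an adhesion molecule (-3.97 ± 0.17). Itgae, the CD103 chain, was lower by less (-2.68 ± 0.13), as were Ly75, the endocytic receptor DEC-205 (-2.23 ± 0.16), the inhibitory receptor gene Btla (-2.29 ± 0.17) and Cd207, langerin (-2.19 ± 0.17). The exception was Dnase1l3, a DNase of phagocytes, at 11.19 and 11.27 in cDC1 and 10.65 and 10.90 in CD24- cDC2, whose arrays did not overlap but which was not called (-0.45 ± 0.17, adjusted p = 0.102). Of 30 cDC2 identity genes, 27 (90.0%) were higher and 1 was lower, with a median of 2.76. Klrd1, which encodes CD94, read 6.95 and 6.73 in cDC1 and 11.19 and 11.38 in CD24- cDC2 (4.45 ± 0.14), and the lectin gene Cd209a read 4.68 on both cDC1 arrays and 8.73 and 8.81 in CD24- cDC2 (4.09 ± 0.12). Csf1r, the receptor for M-CSF, was higher by 3.59 ± 0.14, Itgam, the CD11b chain, by 3.49 ± 0.21, and Cd4 by 2.71 ± 0.13. The gene that went against its list was Clec12a, an inhibitory lectin that binds uric acid crystals, at 9.62 and 9.75 in cDC1 against 7.38 and 7.70 (-2.14 ± 0.16, adjusted p = 5.16e-06). The chemokine receptor gene Ccr2 (0.54 ± 0.18, adjusted p = 0.0683) and the inhibitory Fc receptor gene Fcgr2b (0.16 ± 0.17, adjusted p = 0.632) were not called. These lists name what the sorts were meant to separate and are no independent evidence of it. They were also chosen with earlier results of these data known, so their shares and medians are no test.

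Among regulators, the difference was far larger in a few factors than in most. Of 37 dendritic cell transcription factors, 14 were higher and 4 lower in CD24- cDC2, with a median of 0.38; without cDC1 replicate 1 the called members fell from 18 to 11. Zeb2, a repressor that favours cDC2, read 3.84 and 4.16 in cDC1 and 7.97 and 8.0 in CD24- cDC2, 15.9-fold higher (3.99 ± 0.14, adjusted p = 2.95e-08). Irf4 read 6.69 and 6.64 against 9.19 and 9.26 (2.56 ± 0.13, adjusted p = 4.53e-07). Irf8 went the other way, at 8.49 and 8.99 in cDC1 and 6.31 and 6.52 in CD24- cDC2, 5.01-fold lower (-2.33 ± 0.20, adjusted p = 1.65e-05). For these 3 factors the arrays of the populations were well apart, and each kept its call in 4 of 4 fits without a compared array.

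Further factors higher in CD24- cDC2 with a call kept in 4 of 4 such fits were Prdm1, the repressor BLIMP1 (2.20 ± 0.13), the nuclear receptor gene Rora (1.91 ± 0.14), Bhlhe40 (1.77 ± 0.15), Spib, a relative of PU.1 (1.29 ± 0.15), Tbx21, T-bet (0.95 ± 0.15), and Tcf4, the E protein of plasmacytoid cells (0.85 ± 0.13). Klf4, which acts in a subset of cDC2, was higher by 1.17 ± 0.23 and kept its call in 3 of 4 fits. The other factors lower in CD24- cDC2 were Mycl (-0.82 ± 0.18), Id2, an inhibitor of E proteins (-0.64 ± 0.14), and Rbpj, which carries Notch signals (-0.47 ± 0.13), with calls kept in 2, 2 and 0 of 4 fits. Batf3, needed for cDC1, read 8.26 and 7.98 in cDC1 and 7.93 and 7.77 in CD24- cDC2 and was not called (-0.27 ± 0.15, adjusted p = 0.283). Nfil3, upstream of cDC1 development, differed by 0.02 ± 0.12 (adjusted p = 0.95), Notch2, which cDC2 of the spleen use, by -0.13 ± 0.13 (adjusted p = 0.619), and Zbtb46, a factor of both lineages, by 0.13 ± 0.14 (adjusted p = 0.651). With 2 arrays per population a small difference in them may not have been detectable.

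Sensors of nucleic acids were divided between the lineages by receptor. Of 19 endosomal Toll-like receptors and nucleic acid sensors, 10 were higher and 3 lower in CD24- cDC2, with a median of 0.55. Higher were Tlr7 (5.44 ± 0.21) and Ddx58, the cytosolic RNA sensor RIG-I (2.45 ± 0.16). Slc15a3 (1.27 ± 0.14) and Slc15a4 (1.16 ± 0.15), transporters of the endolysosome, were also higher. Lower were Tlr3, at 8.88 and 8.83 in cDC1 and 4.55 and 4.70 in CD24- cDC2, and Tlr12, which senses profilin (-2.22 ± 0.14). The third, named after its values were seen, was Hsp90b1, a chaperone of Toll-like receptors (-1.15). Unc93b1, which brings these receptors to the endosome, differed by -0.21 ± 0.16 (adjusted p = 0.508), and Aim2, a sensor of cytosolic DNA, by 0.48 ± 0.15 (adjusted p = 0.0573).

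Receptors for microbial surface components and inflammasome genes leaned to CD24- cDC2. Of 28 such genes, 13 were higher and 1 was lower, with a median of 0.36. Tlr1, which pairs with TLR2 to bind lipopeptides, read 5.08 and 4.86 in cDC1 and 8.38 on both CD24- cDC2 arrays (3.41 ± 0.13, adjusted p = 5.52e-08). Ticam2, an adaptor of TLR4, was higher by 2.22 ± 0.26, with cDC1 arrays that lay apart, at 4.79 and 3.76. The inflammasome genes Nlrc4 (2.07 ± 0.16), Nlrp3 (1.47 ± 0.14) and Casp1 (1.29 ± 0.16) and the peptidoglycan sensor Nod1 (1.48 ± 0.18) were higher too. Cd14 and Cd180, coreceptors of the lipopolysaccharide pathway, differed by 0.33 ± 0.15 and 0.02 ± 0.13 and were not called (adjusted p = 0.209 and 0.955).

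Interferon-stimulated genes were higher in CD24- cDC2 in most but not all cases. Of 33 measured, 19 were higher and 4 lower, with a median of 0.89. Ifit3, an antiviral RNA-binding protein, read 4.43 and 4.40 in cDC1 and 7.48 and 7.74 in CD24- cDC2 (3.19 ± 0.14, adjusted p = 9.9e-08). Ifi27l2a read 8.30 and 7.72 against 11.11 and 11.10 (3.09 ± 0.18). Oas1a (2.67 ± 0.15), Oas2 (2.02 ± 0.26) and Ifit1 (2.23 ± 0.22), which recognise viral RNA, and the membrane proteins Ifitm6 (2.61 ± 0.16) and Ifitm1 (2.11 ± 0.14) were higher too. The 4 lower genes, chosen after their values were seen, were Mx1, an antiviral GTPase, at 6.92 and 6.70 in cDC1 and 5.03 and 4.96 in CD24- cDC2 (-1.82 ± 0.14), Trim30a (-0.98 ± 0.12), the tetherin gene Bst2 (-0.69 ± 0.13) and Eif2ak2, the kinase PKR (-0.59 ± 0.15). Irf7, a factor induced by interferon, differed by 0.29 ± 0.18 (adjusted p = 0.363). Of 12 measured p200, GBP and IRG family genes, 3 were higher and 2 lower. Ifi203 was higher by 1.83 ± 0.17 while its relative Ifi205 was lower by 6.77 on the log2 scale (SE 0.15), and probes of near-identical relatives may share signal.

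**Figure D3:**
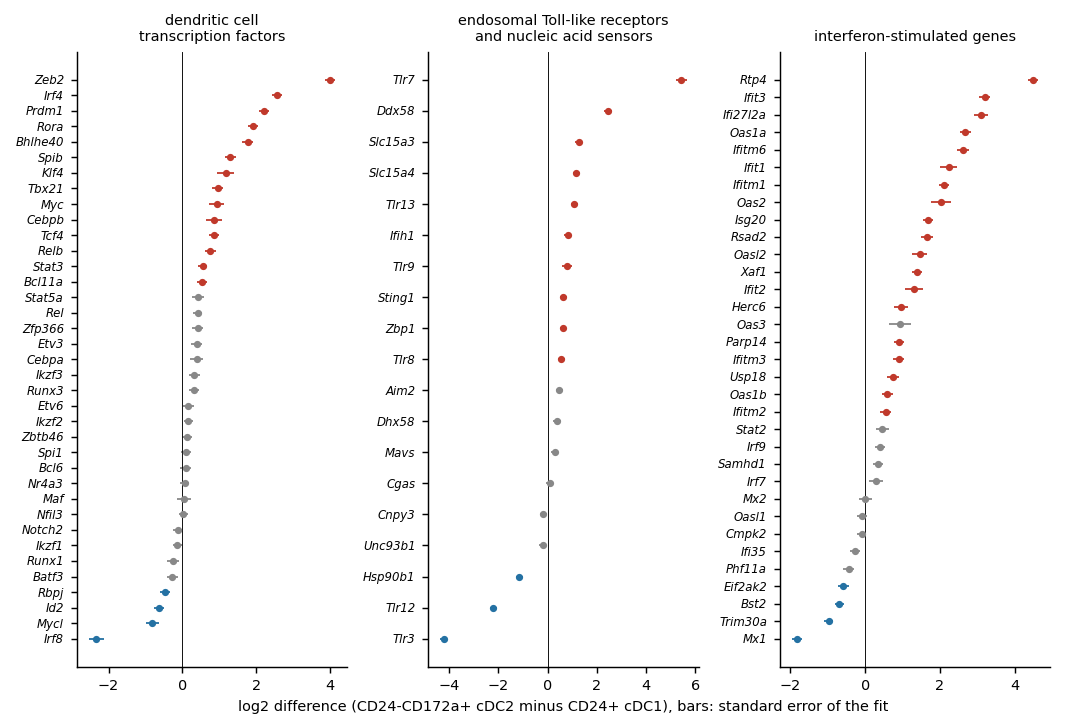
Log2 difference (CD24-CD172a+ cDC2 minus CD24+ cDC1, x axis) with the standard error of the fit for each measured transcription factor, endosomal or nucleic acid sensor and interferon-stimulated gene; red is called higher, blue called lower and grey not called. Zeb2 (3.99), Tlr7 (5.44) and Rtp4 (4.49) are at the top of the panels, and Irf8 (-2.33), Tlr3 (-4.23) and Mx1 (-1.82) at the bottom.

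Lectins and paired receptors included several of the large differences. Of 32 C-type lectins, 17 were higher and 7 lower, with a median of 0.71. Beside the Clec4a genes, higher ones were Clec4b1 (3.27 ± 0.15), Klra17 (3.05 ± 0.13), Clec4n, the fungal receptor dectin-2 (2.50 ± 0.16), and Clec7a, the glucan receptor dectin-1 (2.34 ± 0.13). Lower ones were Clec9a, Clec12a, Ly75, Cd207 and Clec4b2 (-3.57 ± 0.16). Clec4b2 read 7.78 and 7.52 in cDC1 and 4.19 and 3.97 in CD24- cDC2, opposite to its relative Clec4b1, at 3.17 and 3.19 against 6.29 and 6.61. Of 40 Fc and paired immunoreceptors with their adaptors, 23 were higher and 3 lower, with a median of 0.63. Fcer1g, the common signalling chain of Fc receptors, read 8.42 and 8.2 in cDC1 and 11.58 and 11.77 in CD24- cDC2 (3.36 ± 0.14). The sialic acid receptors Siglecg (3.59 ± 0.14), Cd33 (2.94 ± 0.15) and Cd22 (2.16 ± 0.14), the CD300 receptors Cd300ld (3.45 ± 0.14) and Cd300lf (2.41 ± 0.13), the collagen receptor Lair1 (2.71 ± 0.14) and the kinase Fgr (2.21 ± 0.16) were higher. Treml4, which binds dead cells and is known in cDC1, was lower (-2.30 ± 0.17).

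Uptake receptors had members on both sides. Of 24 genes for dead-cell uptake and scavenging, 6 were higher and 4 lower, with a median of 0.06. Lower were Cd36, Clec9a, Scarb2, a lysosomal membrane protein (-1.35 ± 0.14), and Scarb1, a lipoprotein receptor (-1.21 ± 0.17). Higher ones were led by Lrp1, an endocytic receptor (1.36 ± 0.13), and Itgb3, an integrin chain (1.18 ± 0.16). Havcr2, TIM-3, differed by 0.10 ± 0.15 (adjusted p = 0.757).

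Most measured genes of the MHC class I pathway were lower in CD24- cDC2. The listed heavy chain genes H2-K1 and H2-D1 were not among those measured, and Wdfy4 stands in the cDC1 identity list too. Of 19 measured, 13 (68.4%) were lower by limma and none was higher, also at an unadjusted p under 0.05, with a median of -0.78. The transporter genes Tap1 (8.71 and 8.88 in cDC1, 7.92 and 7.84 in CD24- cDC2) and Tap2 (7.77 and 7.71 against 6.54 and 6.91) pump peptides into the endoplasmic reticulum. They were lower by 0.92 and 1.02 on the log2 scale (SE 0.14 and 0.15). The peptide editor Tapbpl (-1.37 ± 0.14), the chaperones Pdia3 (-1.34 ± 0.16) and Canx (-0.90 ± 0.15), and Wdfy4, which cross-presentation by cDC1 requires (-1.25 ± 0.13), were lower too. B2m, the light chain of class I molecules, differed by 0.05 ± 0.12 (adjusted p = 0.863), and the proteasome genes Psme2 and Psmb10 by -0.30 ± 0.13 and -0.09 ± 0.12 (adjusted p = 0.172 and 0.745).

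In the MHC class II pathway some proteases were called, and H2-Ab1, H2-Eb1 and Cd74 did not reach the threshold. Of 23 measured, 11 were higher and 3 lower in CD24- cDC2, with a median of 0.27, and the called members fell from 14 to 8 without cDC1 replicate 1 and to 9 without cDC1 replicate 2. H2-Eb2, a second beta chain of H2-E, read 7.10 and 7.16 in cDC1 and 10.02 and 10.21 in CD24- cDC2 (2.99 ± 0.13, adjusted p = 1.09e-07). The endosomal proteases Lgmn (2.15 ± 0.14), Ctsl (1.28 ± 0.13) and Ctsd (1.18 ± 0.21) were higher. Of other proteases, named after their values were seen, Ctss was higher by 0.49 ± 0.13, a call lost in each of the 4 fits, and Ctsb differed by -0.03 ± 0.13 (adjusted p = 0.928). In addition, the protease inhibitor Cst3, cystatin C, was lower (-1.12 ± 0.13). H2-Ab1 read 12.61 and 12.65 in both populations, and H2-Eb1 and Cd74, the invariant chain, differed by 0.09 ± 0.13 and -0.03 ± 0.12 (adjusted p = 0.748 and 0.917). All 3 are among the brightest probe sets, where arrays can saturate, which was not examined.

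The phagocyte NADPH oxidase makes reactive oxygen in the phagosome from a membrane pair and cytosolic subunits. Of 9 measured genes 4 were higher and none lower by limma, also at an unadjusted p under 0.05, with a median of 0.25; 2 remained called without cDC1 replicate 1, and 2 without either CD24- cDC2 array. Cybb stood apart, and its partner Cyba was higher by 0.53 ± 0.14 (adjusted p = 0.0256, kept in 1 of 4 fits). Hvcn1, the proton channel that balances the charge, was higher by 0.94 ± 0.14, kept in 4 of 4 fits, and the GTPase Rac2 by 0.86 ± 0.20, kept in none. The cytosolic subunit Ncf1 differed by 0.08 ± 0.16 (adjusted p = 0.823).

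Chemokine genes were split between the populations. Of 23 chemokines, 5 were higher and 6 lower in CD24- cDC2, with a median of -0.08. Ccl9 read 4.78 and 4.44 in cDC1 and 8.15 and 7.83 in CD24- cDC2 (3.38 ± 0.17, adjusted p = 3.26e-07). The chemokine genes Ccl5 (1.96 ± 0.19) and Ccl3 (1.64 ± 0.15) were higher too. Cxcl9, which attracts CXCR3+ T cells, read 12.23 and 12.33 in cDC1 and 9.38 and 9.49 in CD24- cDC2 (-2.84 ± 0.13). Ccl22, a ligand of CCR4 (-2.22 ± 0.17), and Cxcl2, which attracts neutrophils (-2.12 ± 0.15), were also lower. Of 27 chemokine and positioning receptors, 8 were higher and 3 lower, with a median of 0.10. Gpr183 (EBI2), which places cDC2 at the bridging channels of the spleen, read 7.89 and 7.76 in cDC1 and 9.92 and 10.05 in CD24- cDC2 (2.16 ± 0.13). Ccr6 (1.33 ± 0.16) and Ccrl2 (1.72 ± 0.27) were higher, and Xcr1, Ccr9 (-2.24 ± 0.16) and Cxcr3 (-1.87 ± 0.21) were lower. Cxcr4 differed by -0.04 ± 0.14 (adjusted p = 0.91).

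Of 40 cytokines and cytokine receptors, 16 were higher and 5 lower in CD24- cDC2, with a median of 0.24. Il12b, the p40 chain of interleukin 12, read 10.52 and 10.72 in cDC1 and 8.66 and 8.64 in CD24- cDC2 (-1.97 ± 0.13, adjusted p = 3.29e-06). Tnf read 8.45 and 8.66 against 10.75 and 11.05 (2.35 ± 0.23, adjusted p = 5.24e-05). Thus the p40 gene was higher in cDC1 and Tnf in CD24- cDC2. The arrays did not overlap in either, which held for all 3137 genes called. In the interleukin 1 family the decoy receptor gene Il1r2 was higher by 2.69 ± 0.13 and the antagonist gene Il1rn by 2.38 ± 0.14. Of the ligands themselves, named after their values were seen, Il1b was higher (0.88 ± 0.15) and Il1a lower (-0.79 ± 0.14). Il1a was dim, at 4.83 and 4.59 in cDC1 and 3.98 and 3.86 in CD24- cDC2, all under the median gene (5.02). The receptors Il21r (3.04 ± 0.13) and Il7r (2.62 ± 0.17) were higher too. Tgfb1 differed by -0.01 ± 0.16 and Il10ra by 0.24 ± 0.14 (adjusted p = 0.986 and 0.32).

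Of 16 growth factor receptor genes, 3 (18.8%) were higher and 2 (12.5%) lower, with a median of 0.08. Over all genes these shares were 6.83% and 8.91%. Met, the receptor for hepatocyte growth factor, read 6.68 and 6.25 in cDC1 and 3.16 and 3.18 in CD24- cDC2 (-3.30 ± 0.16). Csf3r, the G-CSF receptor, was higher by 1.17 ± 0.13. Flt3, whose ligand sustains all cDC, was lower by 0.64 on the log2 scale (SE 0.14, adjusted p = 0.0106), and 2 of the 4 fits retained this call. Csf2ra and Csf2rb, the chains of the GM-CSF receptor, differed by -0.08 ± 0.13 and -0.25 ± 0.13 (adjusted p = 0.769 and 0.265).

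Of 37 genes of the TNF superfamily and co-stimulation, 15 were higher and 3 lower, with a median of 0.28. Tnfsf8, the CD30 ligand (2.28 ± 0.15), Cd274, the inhibitory ligand PD-L1 (1.95 ± 0.14), Ltb, lymphotoxin beta (1.91 ± 0.19), Tnfsf14, LIGHT (1.81 ± 0.21), and Tnfsf4, the OX40 ligand (1.75 ± 0.23), were higher. Btla, an inhibitory receptor for the LIGHT receptor HVEM, was lower. The maturation markers Cd86 and Cd83 differed by 0.19 ± 0.13 and 0.12 ± 0.17 (adjusted p = 0.433 and 0.753).

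Adhesion genes had members on both sides. Of 36 integrins and adhesion molecules, 6 were higher and 9 lower, with a median of 0.07. Beside Itgae and Cadm1, the integrin chains Itga8 (-2.80 ± 0.17) and Itga1 (-1.61 ± 0.13) were lower. Cadm3, of the same family as Cadm1, was higher by 1.83 ± 0.13, at 4.92 and 4.93 in cDC1 and 6.73 and 6.78 in CD24- cDC2, so these relatives went opposite ways. Of 23 S100 and MS4A genes, 11 were higher and 2 lower, with a median of 0.50. S100a6 (2.54 ± 0.14), S100a5 (2.05 ± 0.16), Ms4a6c (2.66 ± 0.15), Ms4a6b (2.59 ± 0.18) and Ms4a7 (2.04 ± 0.14) were higher, while S100a11 differed by 0.10 ± 0.12 (adjusted p = 0.698). Of 27 tetraspanins and purinergic receptors, 4 (14.8%) were higher and 5 (18.5%) lower, beside 6.83% and 8.91% over all genes. Cd81, a tetraspanin, read 11.60 and 11.74 in cDC1 and 9.75 on both CD24- cDC2 arrays (-1.92 ± 0.13), and P2ry6, a receptor for UDP, was lower by 1.02 on the log2 scale (SE 0.15).

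Of 20 SOCS, STAT and JAK genes, 6 were higher and 2 lower, with a median of 0.36, and the called members fell from 8 to 3 and 2 without cDC1 replicates 1 and 2 and to 4 and 3 without CD24- cDC2 replicates 1 and 2. Stat4, which relays interleukin 12 signals, read 7.12 and 7.29 in cDC1 and 9.86 and 9.87 in CD24- cDC2 (2.66 ± 0.14, adjusted p = 4.53e-07). Ptpn1, a phosphatase acting on JAK kinases, was higher by 0.87 ± 0.13. Both kept their call in 4 of 4 fits. Of 26 Notch pathway genes, 2 (7.69%) were higher and 3 (11.5%) lower, with a median of 0.00, which is near the 6.83% and 8.91% over all genes. Dtx1, a target of Notch signals (1.40 ± 0.15), and the coactivator gene Maml3 (1.37 ± 0.23) were higher, and its relative Maml2 (-1.15 ± 0.15) and the receptor gene Notch4 (-0.88 ± 0.15) were lower. A dimmer probe set of Maml2 gave -0.37 and was not called. Of 14 BCL2 family genes, 2 were higher and 3 lower, with 2 called without cDC1 replicate 1 or CD24- cDC2 replicate 1 and 3 without either other compared array. Bcl2l1, which protects from cell death, was lower (-1.06 ± 0.15) and Pmaip1, which promotes it, higher (0.67 ± 0.13), both kept in 4 of 4 fits.

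Of 37 cell cycle genes, 2 (5.41%) were higher and 6 (16.2%) lower in CD24- cDC2, with a median of -0.21. Over all genes these shares were 6.83% and 8.91%. The called members fell from 8 to 2 without cDC1 replicate 1 and to 5 without cDC1 replicate 2. Ccnd2, a cyclin of the G1 phase, read 6.27 and 6.34 in cDC1 and 7.80 on both CD24- cDC2 arrays (1.5 ± 0.13). Mcm6, of the replicative helicase, was lower (-1.04 ± 0.14), and these kept their call in 4 of 4 fits. The mitotic gene Top2a differed by 0.02 ± 0.14 and Pcna, the replication clamp, by 0.06 ± 0.12 (adjusted p = 0.966 and 0.825). Of 24 immediate-early and heat shock genes, which respond to handling of cells, 4 (16.7%) were higher and 2 (8.33%) lower, with a median of 0.17. The lower share was near the 8.91% over all genes. Jun was higher by 1.42 ± 0.14 in all 4 fits, and the called members fell from 6 to 2 and 3 without cDC1 replicates 1 and 2 and to 1 and 3 without CD24- cDC2 replicates 1 and 2. Dusp1, Zfp36 and Hspa8 differed by 0.40 ± 0.13, 0.13 ± 0.14 and -0.06 ± 0.13 and were not called (adjusted p = 0.0734, 0.657 and 0.831).

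Metabolic genes had members on both sides. Of 39 genes of cholesterol and fatty acid metabolism, 11 were higher and 7 lower, with a median of 0.04. Ptgs2, the inducible cyclooxygenase, read 6.71 and 7.02 in cDC1 and 11.11 and 11.39 in CD24- cDC2, 20.9-fold higher (4.39 ± 0.17, adjusted p = 5.52e-08). Fabp5, a fatty acid carrier (2.90 ± 0.14), Pla2g7, which breaks down platelet-activating factor (2.44 ± 0.16), and Lta4h, of leukotriene synthesis (1.95 ± 0.15), were higher, and Plin2, the coat of lipid droplets, was lower (-2.03 ± 0.13). Alox5ap, which acts with 5-lipoxygenase in leukotriene synthesis, differed by -0.34 ± 0.13 (adjusted p = 0.116). The lipoxygenase genes Alox5, Alox12 and Alox15 and Ltc4s, of leukotriene synthesis, named after their values were seen, were not called either. Means of the lipoxygenase genes in cDC1 and CD24- cDC2 ran from 3.89 to 4.32, under the median gene (5.02). At such levels a missing call does not show equal expression. Of 23 glycolysis genes, 4 were higher and 9 lower, with a median of -0.25. The glucose transporters Slc2a3 (1.79 ± 0.17) and Slc2a1 (1.68 ± 0.14) and the enolase Eno3 (1.42 ± 0.17) were higher, while the enzymes Pfkp (-1.68 ± 0.13), Pgk1 (-1.46 ± 0.12) and Aldoc (-1.44 ± 0.21) were lower. Slc2a1 read 6.74 and 6.67 in cDC1 and 8.42 and 8.35 in CD24- cDC2, and Pgk1 9.99 and 9.92 against 8.49 on both arrays. Of 45 respiratory chain genes, 7 were lower and none higher by limma, with a median of -0.32. The share called, 15.6%, was near the 15.7% over all genes, of which 8.91% were lower and 6.83% higher. At an unadjusted p under 0.05, 23 of the 45 were lower and none higher. Ndufa9 (-0.85 ± 0.13) and Ndufs8 (-0.78 ± 0.13), of complex I, kept their calls in 4 of 4 fits. The called members fell to 2 without cDC1 replicate 1 or CD24- cDC2 replicate 1.

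**Figure D4:**
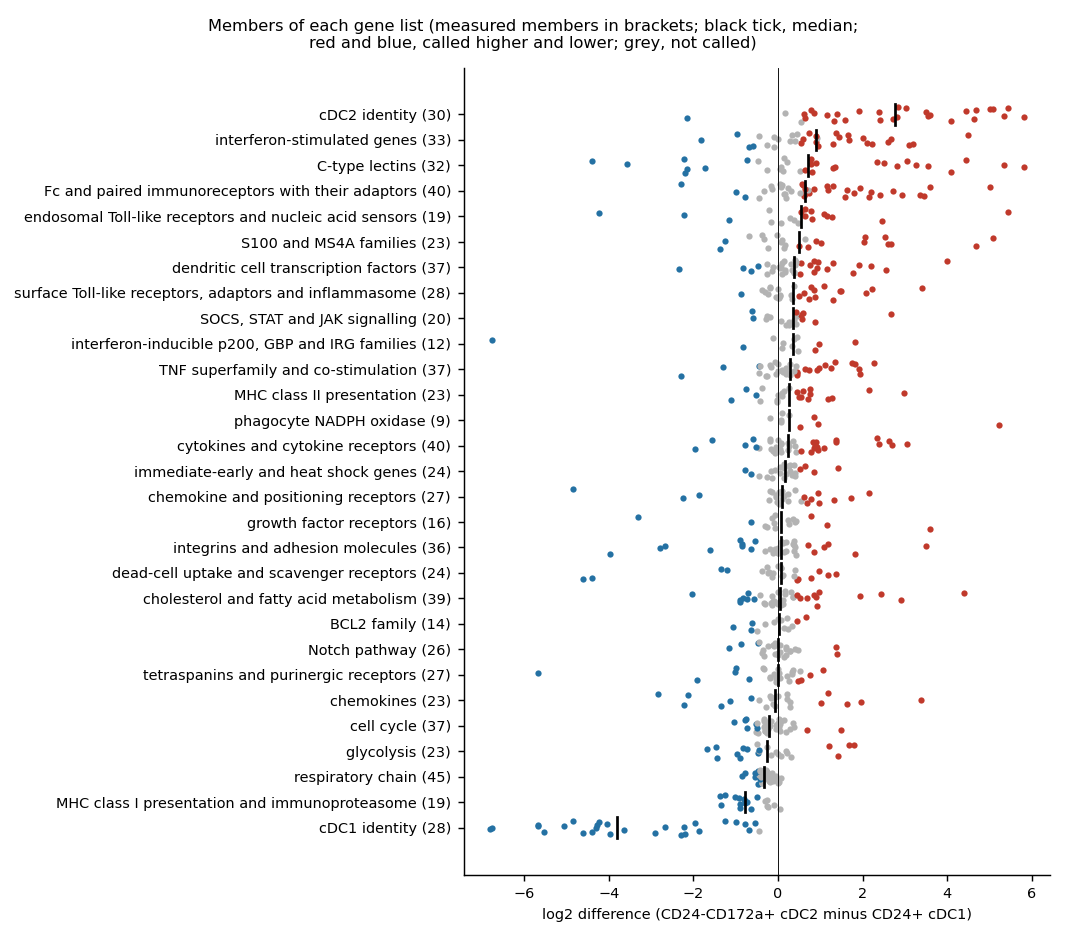
Log2 difference (CD24-CD172a+ cDC2 minus CD24+ cDC1, x axis) of each measured member of 29 gene lists (y axis), ordered by the median, which is the black tick; red is called higher, blue called lower and grey not called. The medians run from -3.81 for cDC1 identity to 2.76 for cDC2 identity, with MHC class I presentation at -0.78 and interferon-stimulated genes at 0.89.

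Some genes of a family that were called together are neighbours on the chromosome. With 19916 genes placed in chromosomal order, 85 runs of at least 3 neighbours were called in 1 direction, 40 higher and 45 lower in CD24- cDC2, with 292 genes in them. The runs described here were chosen after their values were seen, and related genes may share probe signal. On chromosome 19, the 6 genes Ms4a7, Ms4a4a, Ms4a4c, Ms4a4b, Ms4a6c and Ms4a6b were all higher. On chromosome 6 the 5 lectin genes Clec4a1, Clec4a3, Clec4a4, Clec4b1 and Clec4a2 were higher, by 2.82 to 5.81, whereas Clec4b2 of the same family was lower. On chromosome 7, Ifitm5, Ifitm2, Ifitm1, Ifitm3 and Ifitm6 were higher. On chromosome 17, H2-DMa, Psmb9, Tap1, Psmb8 and Tap2 were lower, while Lst1, Ltb, Tnf and Lta, also of the MHC region, were higher. On chromosome 3, S100a4, S100a5 and S100a6 were higher.

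**Figure D5:**
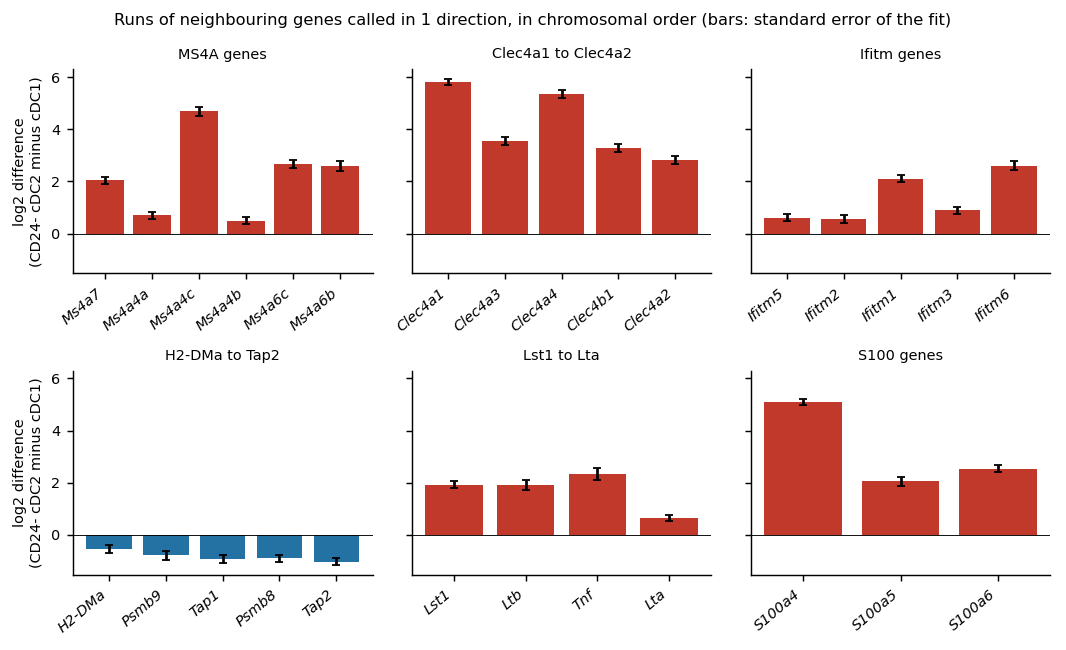
Bars give the log2 difference (CD24-CD172a+ cDC2 minus CD24+ cDC1, y axis) of neighbouring genes in chromosomal order (x axis) for 6 runs called in 1 direction, with the standard error of the fit. The run from Clec4a1 to Clec4a2 lies between 2.82 and 5.81, and the run from H2-DMa, a class II peptide editor, to Tap2 is lower in all 5 genes.

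Markers of other cells that a sort could hold were measured beside these results. Of 22 monocyte and macrophage markers, 8 were higher and 3 lower in CD24- cDC2, with a median of 0.38. Summed levels are log2 of summed linear intensities, so they follow the brightest members of a list and can hide differences of dimmer ones. For these markers the summed level was 13.25 on both cDC1 arrays and 13.37 and 13.43 on those of CD24- cDC2. The higher ones included Adgre1, Csf1r, Adgre4 (4.04 ± 0.15) and Ace (2.08 ± 0.21), and the complement genes C1qa (1.09 ± 0.14), C1qb (1.14 ± 0.18) and C1qc (1.20 ± 0.16). The lower ones were Treml4 (-2.30 ± 0.17), the heme oxygenase gene Hmox1 (-1.69 ± 0.17) and Vcam1, an adhesion molecule (-0.91 ± 0.15). In the direct limma contrast with CD24+CD172a+ cDC2, C1qa (0.88), C1qb (0.93), C1qc (0.82) and Adgre1 (1.12) were called higher too. Csf1r, Adgre4 and Ace were not called there. Of other markers on the list, picked for naming after their values were seen, Fcgr1 (4.58 ± 0.04 and 4.71 ± 0.03), Mertk (3.91 ± 0.02 and 3.69 ± 0.11), Cd163 (3.72 ± 0.03 and 3.86 ± 0.19) and Mrc1 (3.59 ± 0.15 and 3.74 ± 0.23) lay under the median gene in cDC1 and CD24- cDC2 and were not called. The lysozyme gene Lyz2 was bright in both (11.61 ± 0.08 and 11.29 ± 0.05) and not called (-0.32 ± 0.14, adjusted p = 0.177). The part of such cells in the differences was not tested, and Csf1r and Ccr2 stand in the cDC2 identity list too.

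Of 14 B cell markers, 5 were higher and 1 lower, and their summed level was 8.92 and 8.81 in cDC1 and 9.61 and 9.81 in CD24- cDC2. Cd72 (2.39 ± 0.16), Cd22, Bank1 (1.75 ± 0.16), Blk (1.03 ± 0.17) and Fcer2a (0.63 ± 0.15) were higher, while Ms4a1, which encodes CD20, was lower (-1.38 ± 0.20). Pax5, the lineage factor, differed by -0.04 ± 0.13 and Cd79b, of the B cell receptor, by 0.26 ± 0.16 (adjusted p = 0.889 and 0.361), and the part of B cells was not tested. Of 16 plasmacytoid dendritic cell markers, 4 were higher and 4 lower, with summed levels of 9.96 to 10.02 in cDC1 and 10.16 to 10.21 in CD24- cDC2. The higher ones were Lair1, Spib, Tcf4 and Atp1b1 (0.44 ± 0.13), and the lower ones included Ccr9 and Bst2. Their receptor gene Siglech, named after its value was seen, differed by 0.08 ± 0.14 (adjusted p = 0.796). The part of plasmacytoid cells was not tested. Of 14 neutrophil markers 3 (21.4%) were higher, Csf3r, Mmp9 and Mmp8, beside 6.83% over all genes. The summed level of the 14 was 8.06 to 8.13 in cDC1 and 8.25 to 8.35 in CD24- cDC2. Their median member stood at 4.28 and 4.24, under the median gene (5.02), so this is a sum of mostly dim genes. Of 13 T cell markers 1 was called (Cd3d), a call that no fit without a compared array kept, and of 12 NK cell markers 2 (Nkg7 and Klrk1, in opposite directions). The shares called were 7.69% for T cell and 16.7% for NK cell markers, beside 15.7% over all genes. None of 8 erythroid and platelet markers was called by limma, and none had an unadjusted p under 0.05. Of 14 markers of migratory dendritic cells, 5 were higher and 1 lower, with summed levels of 13.26 to 13.40 in cDC1 and 13.90 to 14.08 in CD24- cDC2. The lower one was Ccl22 (-2.22 ± 0.17). The higher ones included Ccl5, Relb (0.75 ± 0.15) and Ccr7, the receptor that guides cells to the T zone (0.78 ± 0.15), each of the last 2 kept in 3 of 4 fits, and without cDC1 replicate 1 the called members fell from 6 to 2.

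Most of what separated CD24- cDC2 from cDC1 did not reach the threshold between the cDC2 populations. Over all 19938 genes, 291 were called between CD24- cDC2 and CD24+CD172a+ cDC2. Of the 3137 genes called here, 168 were among these 291, 87 of them higher and 81 lower in CD24- cDC2 than in cDC1. In 87 of these 168 genes the mean of CD24+CD172a+ cDC2 lay between those of the other populations. Both cDC2 populations are compared with the same cDC1 arrays, so only the direct contrast between them is tested. Cd8a, at 10.92 and 11.07 on the cDC1 arrays, had means of 7.58 ± 0.37 in CD24+CD172a+ cDC2 and 5.47 ± 0.22 in CD24- cDC2, and the direct contrast was called (-2.11, adjusted p = 0.000925). Tlr7 stood at 3.01 ± 0.19, 7.07 ± 0.34 and 8.45 ± 0.41 in the same order (1.39, adjusted p = 0.0141), and Mmp12 at 4.22 ± 0.41, 8.82 ± 0.22 and 10.27 ± 0.12 (1.46, adjusted p = 0.00833). In these 3 genes CD24- cDC2 were thus the farther of the cDC2 populations from cDC1. Cd36 and Il12b ran otherwise, with CD24+CD172a+ cDC2 lowest. Cd36 stood at 10.36 ± 0.03, 4.72 ± 0.17 and 5.76 ± 0.00 (1.03, adjusted p = 0.00703), and Il12b at 10.62 ± 0.14, 6.93 ± 0.12 and 8.65 ± 0.02 (1.72, adjusted p = 0.000603). Irf4, Irf8, Zeb2, Clec9a, Sirpa and S100a4 were not called between the cDC2 populations, with adjusted p from 0.324 for Irf8 to 0.967 for Zeb2.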

How the data were processed

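RNA of sorted spleen dendritic cells was hybridised to Affymetrix mouse gene arrays after amplification with a pico-input kit, per the labels' protocols. The values are RMA intensities that the authors made in Affymetrix Expression Console, per the submitters' processing notes, and deposited on a linear scale; software versions and genome build are not given in the sources used here. RMA includes background correction, quantile normalisation and summarising of probes, so array totals carry no depth. Detection calls were not used here.

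Intensities were taken to log2 with no pseudocount. Of 28853 probe sets, 21789 had 1 gene symbol in the platform annotation, 1621 several and 5443 none, and of those with 1 symbol 21698 were found in the RefSeq gene table. The probe set with the highest mean stood for a gene (999 genes had several), which left 19938 genes without a filter. limma 3.58.1 in R 4.3.3 was fitted to all 6 arrays as 3 groups, with 3 residual and 7.31 prior degrees of freedom, a two-sided moderated test and Benjamini-Hochberg adjustment. The fit was tested on simulated data. Tables and plots were made with Python 3.11.15, pandas 2.3.3, numpy 2.4.6 and matplotlib 3.10.9.

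The populations compared and the 37 gene lists (816 measured genes) were chosen with earlier results of these data known. Named were the sort markers, all listed transcription factors, the 12 largest called differences in each direction, and from each list up to 6 called members with the largest differences, all called members past 2 on the log2 scale and up to 3 bright members not called. Further named were, among genes called both here and between the cDC2 populations, the 6 largest differences in each direction between those populations, and any called marker of another cell type, in all 352 genes. Predicted genes and antigen receptor segments were left out. Alternatives were dim-gene filters, other probe set rules, other normalisations, a variance trend, only the arrays compared, a replicate block and each array left out.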

Additional observations from a re-analysis of the deposited data

Results flagged for a closer look

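In the 12 genes with the largest direct differences among those called both here and between the cDC2 populations, 6 in each direction, the difference from cDC1 was not the same in both cDC2 populations. The values given are from the direct limma contrast of CD24-CD172a+ minus CD24+CD172a+ cDC2 (n = 2 arrays each). The genes were chosen by the call and size of this contrast, so its adjusted p is no separate support. The difference of the differences was 2.39 for Apol7c, an apolipoprotein L gene (adjusted p = 0.0105), which stood at 8.25 ± 0.00 in cDC1, 3.65 ± 1.04 in CD24+CD172a+ and 6.04 ± 0.18 in CD24-CD172a+ cDC2. It was 2.16 for H2-M2, a non-classical class I gene (adjusted p = 0.000233), at 6.67 ± 0.14, 6.66 ± 0.02 and 8.82 ± 0.10 in the same order. For Pla2g7 it was 1.91 (adjusted p = 0.00071), for Tnfsf8 1.78 (adjusted p = 0.000872), for Il12b 1.72 (adjusted p = 0.000603) and for Tnf 1.63 (adjusted p = 0.00973).

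On the other side it was -2.11 for Cd8a (adjusted p = 0.000925) and -2.05 for the sort marker Cd24a (adjusted p = 0.000454), for which the populations were sorted. It was -1.93 for Chil5, a chitinase-like gene (adjusted p = 0.00354), and -1.47 for Xcl1, the ligand of XCR1 (adjusted p = 0.00164). Xcl1 stood at 6.26 ± 0.22 in cDC1, 8.91 ± 0.02 in CD24+CD172a+ and 7.44 ± 0.04 in CD24-CD172a+ cDC2. It was -1.33 for Pclaf, a replication factor (adjusted p = 0.00591), and -1.23 for Pmepa1 (adjusted p = 0.00415).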

How the results depend on the processing

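None of the 231 named genes called changed direction in any alternative run. The direction of named genes not called was not compared. Among them Cd83 changed sign without cDC1 replicate 1, since the other cDC1 array (11.38) lay above the CD24- cDC2 mean (11.34). With limma the count of calls (3137) lay between 3032 and 3489 under both dim-gene filters, with probe sets averaged per gene, after cyclic loess, median centring or a further quantile normalisation, and with an intensity trend and robust variance, and was 2679 when all probe sets were tested and 2839 with only the 4 arrays compared. A replicate block gave 3323 calls, 1462 higher and 1861 lower. Across genes, deviations of same-numbered arrays from their group means correlated at only 0.0242 to 0.0838. A low correlation over all genes cannot settle whether the replicate numbers pair the arrays. Leaving out each array gave 1922 to 2839 calls, 892 to 1249 higher and 1030 to 1590 lower. Of the 231 named genes called, 182 kept the call in all 4 fits without a compared array, and 17 in none.

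The 7 respiratory chain calls became 12 without genes under the 25th percentile, 16 without those under the median, 4 with a further quantile normalisation or cyclic loess and 18 with the trend. NK cell marker calls (2) became 1 without genes under the median, with all probe sets, either normalisation, median centring, the trend, only 4 arrays or the replicate block. Neutrophil marker calls (3) became 1 without genes under the median, BCL2 calls (5) became 3 with all probe sets, and immediate-early calls (6) became 11 with the trend. The cause of these shifts was not tested. Leaving out each array gave ranges of 11 to 18 for transcription factors, 8 to 13 for MHC class II, 2 to 4 for the oxidase, 2 to 7 for SOCS, STAT and JAK, 2 to 4 for BCL2, 2 to 9 for cell cycle, 2 to 6 for the respiratory chain, 1 to 6 for immediate-early genes, 0 to 1 for T cell, 1 to 1 for NK and 2 to 6 for migratory markers. With 2 arrays per population, and no background measure for the 168 called genes with a mean under the 25th percentile, small differences and the size of dim ones are the least certain.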

Other observations

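The genes named here fall outside the naming rule and were chosen after their values were seen. Ccl4, of the chemokine list, had a mean of 10.7 for cDC1. It was 10.1 for the cDC2 with CD24 and 11.8 for those without, so that it was higher than in cDC1 in 1 cDC2 population and lower in the other. The direct limma contrast of the cDC2 populations gave 1.6 (adjusted p = 0.002). Cnr2, a cannabinoid receptor, and Rcan1, an inhibitor of calcineurin, had the same pattern, with 1.15 and 1.4 in that contrast (adjusted p = 0.004 and 0.002). No other gene was called with opposite signs.

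Uty, a gene of the Y chromosome, read 6.25 and 6.17 on the cDC1 arrays against 7.34 and 7.52 for CD24-CD172a+ cDC2 (1.22 ± 0.13, adjusted p = 8.89e-05), and Eif2s3y of the same chromosome was higher too (0.68 ± 0.15, adjusted p = 0.00984), a call kept by 2 of the 4 fits without a compared array, while Kdm5d, also of that chromosome, differed by 0.08 ± 0.14 (adjusted p = 0.798). Xist lay between 3.18 and 3.64 on all 6 arrays, under the 25th percentile.

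Of 7064 probe sets without 1 gene symbol, 430 were called when the whole array was tested, of which 247 were higher and 183 lower than in cDC1. Of 215 called genes with another probe set, 19 had one with the opposite sign, and none of these 19 was called by limma.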
